A study of Saccharomyces cerevisiae with 2 samples.

Results

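The codons of serine and threonine, 6 and 4 in number, were followed through the yeast genes of a codon-level ribosome profiling study. Every combination of a gene and one of these codons was taken if the codon occurred at least 1 time in the gene and the gene had 100 or more ribosome footprints. This gave 26415 gene and codon pairs in 2939 genes, 15755 of serine and 10660 of threonine, out of 257597 pairs of gene and codon in the 4579 listed genes. The study sequenced 2 libraries of 1 Saccharomyces cerevisiae strain, yJC2229, cultured in YPD of pH 6.5 with 2% glucose at 24 °C, harvested in mid-log phase and not pretreated. One library was made from total RNA and the other from ribosome footprints, the stretches of mRNA that a ribosome shields from nuclease, which were taken from the 80S fraction of cells lysed with cycloheximide, a drug that arrests elongating ribosomes. Each group has 1 library, so the values have no error between cultures and no p-values are given.

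Serine is encoded by a box of 4 codons that begin with TC and, apart from it, by the pair AGT and AGC, while threonine has a single box of 4 codons that begin with AC. In yeast, TCT and TCC are read by a serine tRNA that carries inosine at the wobble position, and ACT and ACC by a threonine tRNA of the same kind. TCA and ACA are read by tRNAs with uridine there, TCG and ACG by tRNAs with cytosine, and AGT and AGC by a serine tRNA with guanosine. Both residues carry the O-linked mannose chains of yeast cell wall proteins, which hold long stretches of them. A ribosome that stays longer on a codon leaves more footprints there, but sequence preferences of nuclease and ligation act on the same counts.

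The pair value used throughout takes the footprints that a gene has per occurrence of a codon and divides them by that gene's average over all its codons, so a codon at its gene's mean has a pair value of 1. A codon value is the mean of this quantity over all occurrences of the codon in the 2939 genes. The table sums footprints over all places where a gene has a codon, and the ribosomal site to which a counted codon belongs is not given in the sources used here. Footprints numbered 3756929 over the listed genes, between 25 and 79140 per gene. The 2939 genes held 3661148 of them, or 2.74 per codon, and 469293 (12.8%) lay on serine and threonine codons, which made up 14.3% of the codons of these genes. Codon values carry 95% gamma intervals and single pairs exact Poisson intervals where these are shown. For several counts of 0 the value that 3 counts would have is given. All of these cover counting error only. The reads were amplified and carry no molecular identifiers, so they need not be independent.

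Relative to the gene mean, TCG had the highest codon value of the 10 codons, at 1.42 (95% interval 1.38 to 1.47), and ACC the lowest, at 0.734 (0.714 to 0.757). The other G-ending codon, ACG, followed TCG at 1.30 (1.25 to 1.34), and then came ACA at 1.20 (1.17 to 1.23) and AGC at 1.12 (1.09 to 1.16). TCC at 1.01 (0.985 to 1.04) and AGT at 0.997 (0.966 to 1.03) could not be told from the gene mean. TCA at 0.896 (0.873 to 0.921), TCT at 0.870 (0.853 to 0.889) and ACT at 0.765 (0.748 to 0.785) lay below it. For TCT this did not hold in genes with 1000 or more footprints (1.02) or with footprints pooled over genes (1.00). The top rank also depended on the summary. For medians over genes with 1000 or more footprints and 5 or more occurrences, ACG was at 1.60 (28 genes) and TCG at 1.285 (40 genes). By the 95% intervals 4 of the 10 codons were above 1, against 45.9% of the 61 sense codons, and 4 were below 1, against 42.6%, shares near those of all sense codons. The values of all 61 sense codons reached further, from 0.620 to 4.80. Among the sense codons TCG ranked 14 from the top and ACC ranked 50. In the order of the 10 values, neighbours with overlapping intervals were TCC and AGT, TCA and TCT, and no others except ACT and ACC, whose intervals overlapped slightly. As amino acids, serine averaged 0.994 (0.984 to 1.01) and threonine 0.946 (0.934 to 0.959), ranks 7 and 9 of the 20 amino acids, and the serine box (0.977, 0.965 to 0.989) lay below the serine pair (1.05, 1.02 to 1.07).

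**Figure D1:**
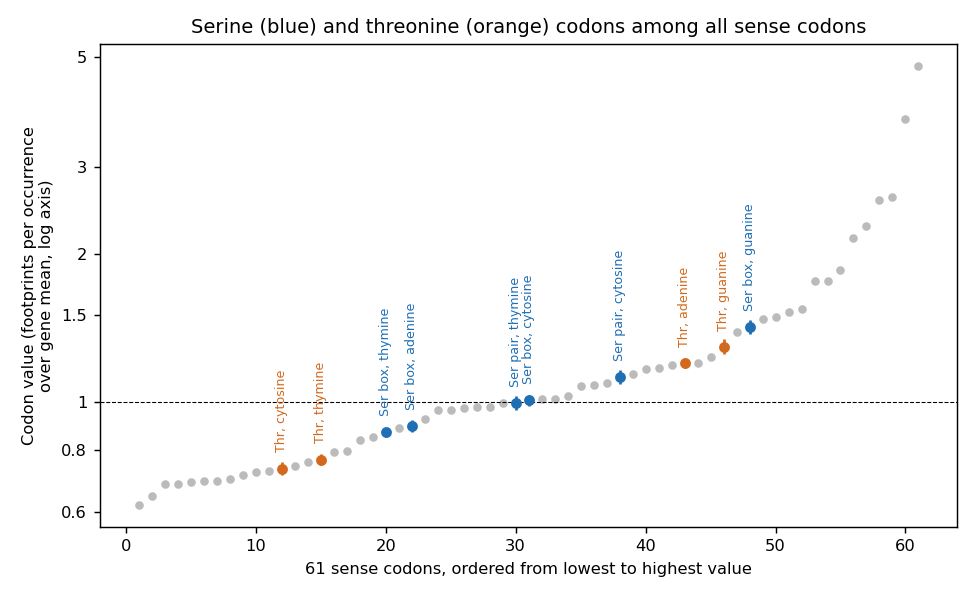
Codon values (footprints per occurrence over the gene mean, log axis) of the 61 sense codons, ordered from lowest to highest. Serine codons are blue, threonine codons orange and named by their last base, bars are 95% gamma intervals and the dashed line is the gene mean; threonine codons ending in thymine and cytosine lie low (0.765 and 0.734), and the G-ending serine codon highest of the 10 (1.42).

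Over pairs of all depths, the median pair value was below 1 for each of the 10 codons, from 0.50 for ACC to 0.981 for ACA. TCG pairs had a median of 0.875 with quartiles of 0 and 2.03, and TCT pairs a median of 0.749 with quartiles of 0.303 and 1.22. A value of 2 or more was reached by 3787 of the 26415 pairs (14.3%), close to the 15.6% of all pairs of gene and sense codon. By codon this share ran from 7.16% for ACT to 25.4% for TCG. A value of 0.5 or less was found in 40.9% of the pairs, against 39.3% of all sense pairs. No footprint at all was found in 26.9%, against 24.4%, and the share at 0 was lowest for TCT (17.7%) and highest for AGC (35.2%). TCT occurs 11.1 times in an average gene, AGC 3.91 times and TCG 3.56 times, so these shares by codon mix depths. The spread of serine, threonine and all sense pairs was next compared at matched depth, but single codons were not.

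Depth narrowed the spread. Where the gene mean gave a pair fewer than 2 footprints, 57.6% of serine pairs and 59.5% of threonine pairs were at 0, against 55.6% of all sense pairs. Between 20 and 100 footprints these shares were 1.11% and 1.98%, against 1.37%, and the middle 50% of the pairs reached from 0.591 to 1.31 for serine and from 0.550 to 1.15 for threonine. From 100 footprints on, serine pairs had a median of 0.945 and threonine pairs one of 0.737, with 0.861 for all sense codons. No footprint was held by 5 of these 777 pairs (0.644%), near the 0.968% of all sense pairs. Those 5 were TCC and ACT in RPL41A, ACT in RPL14A and TCC in RPS21A, all of ribosomal proteins, and TCT in CPR1, the cytosolic cyclophilin. In CPR1, 4 TCT codons would have had 112 footprints at the gene mean, and the limit of 3 counts is a value of 0.0268. RPL41A has a near-identical copy, RPL41B, and the treatment of reads that match both is not known, so its values are uncertain. RPL14A and RPS21A are likewise named as A copies, so the same limit may apply to their values. At the least depth used, the 20 genes with exactly 100 footprints had a serine value of 0.903 (0.733 to 1.11) and a threonine value of 0.808 (0.639 to 1.03). The 14 genes with 99, just outside the minimum, had 0.890 (0.696 to 1.13) and 0.939 (0.681 to 1.28).

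**Figure D2:**
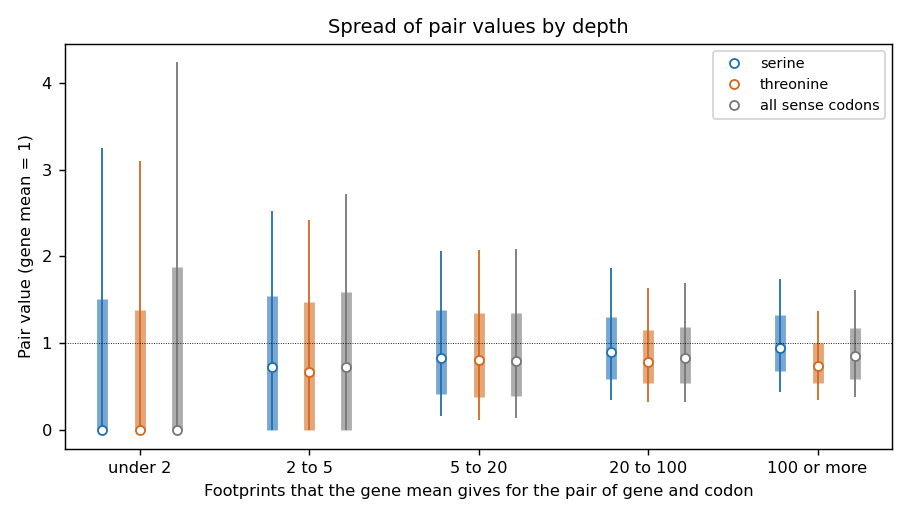
Pair values by the number of footprints that the gene mean gives for the pair. Thin lines run from the 10th to the 90th percentile, thick bars cover the quartiles and open points are medians; the spread narrows with depth, and from 100 footprints on the serine median (0.945) lies above that of threonine (0.737).

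Synonymous codons were compared to ask how far the choice of codon, with the amino acid kept, went with footprint density. Codons ending in G stood above their synonyms. TCG was 1.63 times TCT (1.57 to 1.70), 1.58 times TCA (1.52 to 1.65) and 1.41 times TCC (1.35 to 1.47), and ACG was 1.69 times ACT (1.62 to 1.77) and 1.77 times ACC (1.69 to 1.85). To take the gene out of the comparison, codons were set against each other inside genes with 1000 or more footprints and 5 or more occurrences of each. TCG was higher than TCT in 28 of 38 such genes and at least 2-fold higher in 17, or 44.7%, while TCT was at least 2-fold higher in 1. Over all ordered pairs of sense codons, the first was higher in 49.8% of comparisons and at least 2-fold higher in 18.8%. ACG was higher than ACT in 23 of 27 genes and at least 2-fold higher in 15 of them, with the reverse in 0. For the 2 G-ending codons themselves, TCG over ACG was 1.10 (1.04 to 1.15), but only 13 genes held enough of both and TCG was higher in 5.

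The A-ending codons parted the amino acids. ACA was 1.57 times ACT (1.51 to 1.62), higher in 100 of 137 genes, and 1.63 times ACC (1.57 to 1.70), higher in 97 of 122. TCA, in contrast, was 1.03 times TCT (0.995 to 1.07), an interval that holds 1, and was the lower of the 2 in 81 of 138 genes. ACA over TCA was 1.34 (1.29 to 1.39), with ACA higher in 60 of 88 genes. The G-ending threonine codon was 1.08 times ACA (1.04 to 1.13), higher in 14 of 21 genes. With pair values capped at the 90th percentile this order turned, with ACG at 1.07 and ACA at 1.11.

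The codons that share an inosine tRNA were then set against each other. TCC was 1.16 times TCT (1.12 to 1.20), while ACC lay below ACT, with ACT over ACC at 1.04 (1.00 to 1.08), a direction that turned with footprints pooled over genes (0.994). Inside genes the serine difference was small: TCC was the higher in 161 of 300 genes and TCT in 137, and each was at least 2-fold above the other in a similar number (48 and 50). ACT was higher than ACC in 157 of 276 genes and at least 2-fold higher in 54, or 19.6%, against 29 in the other direction. The serine box codons ending in C and T stood above the threonine codons with the same last base, with TCC over ACC at 1.37 (1.32 to 1.43) and TCT over ACT at 1.14 (1.10 to 1.17), higher in 168 of 255 and 202 of 330 genes. In the pair read by the guanosine tRNA, AGC was 1.13 times AGT (1.08 to 1.18) and was higher in 24 of 35 genes.

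Genes of different length and abundance were compared next, because short and highly expressed genes supply most footprints per codon. Length was classed as up to 200 codons (594 genes), over 200 to 500 (1355) and above 500 (990), with medians of 3.33, 0.974 and 0.327 footprints per codon. Abundance was classed by quartiles of the authors' abundance column, whose header reads FPKM but whose values behave as CPM values not divided by length. Its top quartile had a median of 3.80 footprints per codon, and the other quartiles lay between 0.577 and 0.779.

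The order of the synonymous codons recurred in most classes. With the 3 length classes split into genes below and above the median abundance, 6 classes in all, TCG was above TCT, TCC and TCA in 6 of 6. AGC was above TCG in short genes above the median abundance, at 1.37 (1.30 to 1.45) against 1.22 (1.11 to 1.33). ACA was above ACT and above ACC, AGC above AGT, TCC above TCT, and ACT above ACC, each in 6 of 6 as well. ACG was above ACA in 4 of the 6. For ACT and ACC the sizes were small: at over 200 to 500 codons above the median abundance, ACT was 0.816 and ACC 0.761. By abundance quartile alone, ACC was the higher in the third, at 0.773 (0.730 to 0.820) against 0.738 (0.704 to 0.775) for ACT.

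Within this order, single codons varied with gene length by modest amounts. TCT went from 1.00 (0.977 to 1.03) in the shortest class through 0.891 (0.872 to 0.912) to 0.848 (0.822 to 0.876) in the longest, a 1.18-fold difference (1.13 to 1.23) between the ends. This turned to 0.894 for medians over genes with 1000 or more footprints and 5 or more TCT codons. TCA was 1.08 times as high in the shortest class as in the longest (1.01 to 1.15). These were the 2 of 10 codons with a higher value in short genes, against 18% of sense codons. TCG, AGT and ACA had lower values there, 3 of 10 against 29.5%, and TCG was 1.32 in the shortest and 1.46 in the longest class. As a family, serine codons were 1.03 in short and 0.988 in long genes, and threonine codons 0.907 and 0.952. Across the 6 classes of length and abundance, the gap between the amino acids was widest in the 213 short genes above the median abundance. There serine was at 1.10 (1.09 to 1.11) and threonine at 0.856 (0.843 to 0.869). Ribosomal protein genes, described below, were not set apart in this class.

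With abundance, 7 of the 10 codons were higher in the top than in the bottom quartile and 0 were lower. The shares among all sense codons were 60.7% and 1.64%, so this direction was common to most of the code. Values are relative to the gene mean, so these counts do not show that footprint density itself rose at most codons. Over all occurrences, sense codons of the other amino acids were at 0.991 in the top and 0.994 in the bottom quartile. Their fold was 0.996 (0.987 to 1.01), an interval that holds 1. The part of codon choice, which also differed between the quartiles, was not tested. AGT had the largest fold among the 10, at 1.14 (1.05 to 1.24) in the top quartile against 0.925 (0.872 to 0.983) in the bottom one, or 1.23-fold (1.11 to 1.36). When abundance was divided by the number of codons before the classes were made, this fold was 0.998. TCC was 1.16 times as high in the top quartile (1.07 to 1.25), ACT also 1.16 times (1.08 to 1.25) and TCT 1.12 times (1.05 to 1.19). TCA, TCG and ACG had intervals that hold 1.

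**Figure D3:**
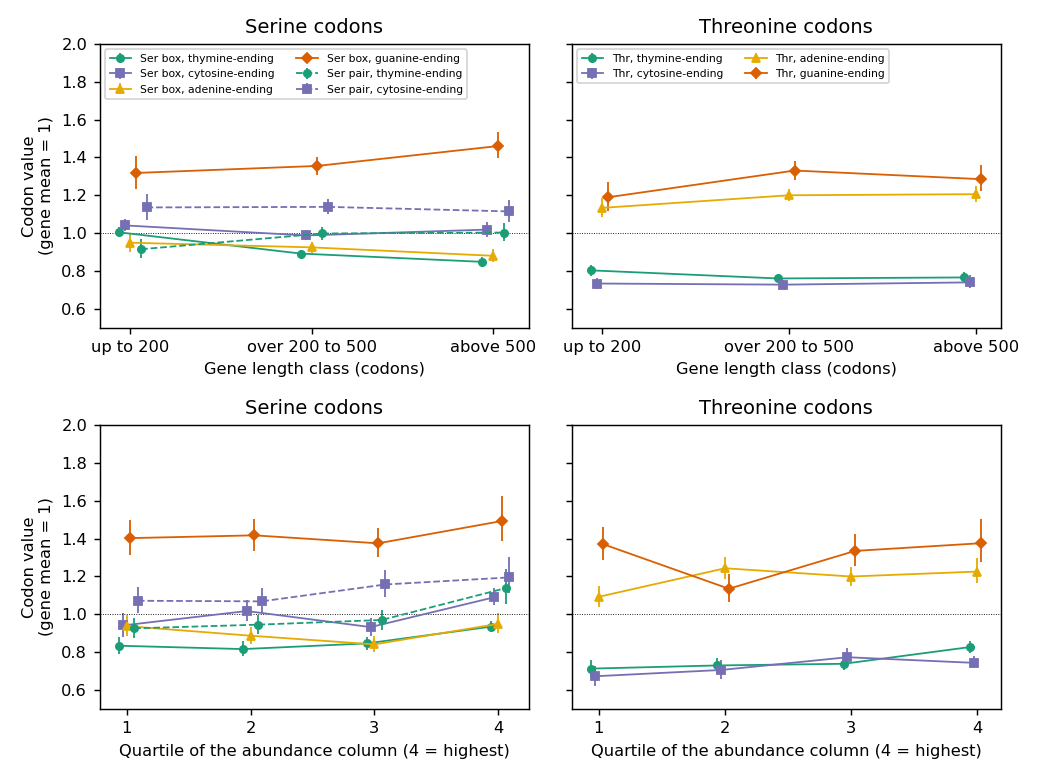
Codon values of serine (left) and threonine (right) by gene length (top) and by quartile of the abundance column (bottom), with 95% gamma intervals; dashed lines are the serine pair and the dotted line is the gene mean. The G-ending serine codon stays above the other serine codons in every class, and the A- and G-ending threonine codons stay above the T- and C-ending ones.

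Codon choice also differed between the abundance quartiles. In the bottom quartile TCT and TCC made up 23.9% and 14.8% of the serine codons, and in the top quartile 34.7% and 21.2%. TCG went from 10.7% to 7.15% and AGC from 13.3% to 7.28%. Among threonine codons, ACT went from 30.7% to 41.4% and ACC from 21.3% to 26.7%, while ACG went from 16.1% to 8.48%. Footprints were still more uneven. In the top quartile TCT and TCC took 45.9% and 34.5% of the serine footprints and TCG 2.63%. If every codon there had been at its gene's mean, TCG would have taken 1.87%. ACT and ACC together dominated threonine in that quartile with 45.4% and 41.6% of the footprints, and ACG, with 2.53%, again lay above the 1.52% that gene means would give.

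The 8 genes with the most serine and threonine footprints held 14.1% of all such footprints, and 7 of them encode cell wall proteins or enzymes of sugar breakdown. CCW12 (YLR110C), a small mannoprotein of the cell wall, led with 17624, on 14 serine and 26 threonine codons that form 29.9% of its frame. Its 13 ACT and 13 ACC codons had values of 0.670 and 1.01, and its single AGC codon held 1131 footprints, 2.12 times the gene mean. CWP2, another wall mannoprotein, also had a single AGC codon, with 869 footprints and a value of 3.63. TDH3 (YGR192C), the main glyceraldehyde-3-phosphate dehydrogenase, was split between the amino acids, with TCT at 1.49 and TCC at 1.36 but ACT at 0.736 and ACC at 0.162. It is near-identical to TDH2, so these values are uncertain in the same way. The other 5 were the glycolytic and fermentation enzymes CDC19, FBA1 and PDC1, the peroxiredoxin AHP1 and the wall protein SED1. Of the 8 genes, CCW12, CDC19, PDC1 and CWP2 had ACC above ACT, while TDH3, FBA1, AHP1 and SED1 had ACT above ACC.

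Genes made largely of serine and threonine did not all follow the average. The 5 genes with the largest shares of these codons among genes with 1000 or more footprints were DSE2 (46.3%), a daughter cell protein that helps to part mother and daughter, the wall proteins CCW14 (42.3%) and SED1 (41.6%), KRE1 (40.8%), which is needed for wall glucan, and SVS1 (39.8%), a wall protein of vanadate resistance. Serine values were between 0.870 and 1.27 in these genes and threonine values between 0.656 and 1.14. SED1, a stress-induced wall protein, has 42 serine and 99 threonine codons. Its only TCG codon held 258 footprints, a value of 6.32, and its 52 ACT codons had a value of 0.663. Over all genes, the quartile with the smallest share of serine and threonine codons had a serine value of 1.01 (0.991 to 1.03) and the quartile with the largest share one of 0.981 (0.963 to 0.999). Threonine values were 0.997 (0.973 to 1.02) and 0.942 (0.920 to 0.965).

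Values for one codon differed many-fold between deeply covered genes. In genes with 1000 or more footprints and 5 or more occurrences, TCC ranged from 4.40 (3.82 to 5.03) in YPT1 (YFL038C, chromosome VI, 55366 to 55986), a Rab GTPase of the secretory pathway, down to 0 of 6 codons in TEF1 and TEF2. Both encode elongation factor 1-alpha and are near-identical. TEF2 also had the highest ACT value, 4.81 (4.49 to 5.16) over 14 codons. In TEF1 the 21 serine codons held 12 footprints and the 28 threonine codons 618. In RPS6A and RPS6B, the near-identical genes of a small subunit ribosomal protein, 6 ACT codons held no footprint. Genes without a near-identical copy also reached such values. DYS1, deoxyhypusine synthase, had 1 footprint on 10 TCT codons where its mean gives 30.6, a value of 0.0327 (0.000828 to 0.182). TRP2, of tryptophan synthesis, had none on 9 ACC codons where its mean gives 21.1, for a limit by 3 counts of 0.142. ERG9, squalene synthase, had none on 9 ACC codons where its mean gives 22.9, for a limit of 0.131. HXT2, a high-affinity glucose transporter, had the highest ACC value at 3.54 (3.08 to 4.06) over 10 codons.

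Among the remaining codons the highest gene was GNP1, an amino acid permease, for TCG (3.65), the RNA-binding protein gene HEK2 for TCA (3.42), the mannosyltransferase gene KRE2 for AGT (3.25), the valyl-tRNA synthetase gene VAS1 for AGC (2.85), the proteasome subunit gene PRE7 for ACA (4.40), the endocytosis gene SLA1 for ACG (3.12) and RPL11B for TCT (5.02). RPL11B has a near-identical copy, and without genes that are near-identical by codon counts RPL7A led TCT at 3.16. RPL7A is named as an A copy of a ribosomal protein gene, so shared reads may affect its value too. The lowest genes were the vacuolar carboxypeptidase gene CPS1 for TCA (0.101), ARG7 of arginine synthesis for TCG (0.424), the inositol transporter gene ITR1 for AGT (0.0533), ILV6, the regulatory subunit of acetolactate synthase, for AGC (0.300), YDR341C for ACA (0.135) and AAT2, an aspartate aminotransferase, for ACG (0.619). YDR341C also held none on 5 ACC codons, where its mean gives 9.27, for a limit by 3 counts of 0.324.

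A codon that occurs once in a gene shows a single place in the mRNA. There were 3111 such pairs, of which 1491 (47.9%) held no footprint, against 48.3% of such pairs over all sense codons. A value of 5 or more was found in 120 (3.86%), against 7.88% of such pairs over all sense codons. By codon these were 26 of 480 TCG pairs, 22 of 465 ACG pairs, 13 of 471 AGC pairs and 11 of 206 ACA pairs, with fewer than 13 at each of the other codons. In genes with 1000 or more footprints the highest was the only ACG codon of ERG9 (YHR190W, chromosome VIII, 484845 to 486179), with 38 footprints where the gene mean is 2.55, a value of 14.9 (10.6 to 20.5). Of the leading genes of the other codons, SEC53, phosphomannomutase, came next with its only AGT codon (83 footprints, 9.68), then CHP1 at TCC (8.54), the mitochondrial DNA-packaging gene ABF2 at TCG (8.41), RPL18B at TCA (6.88), RPP1A, of the ribosomal stalk, at AGC (655 footprints, 6.65) and LIA1, deoxyhypusine hydroxylase, at ACA (6.54). The thioredoxin gene TRX2 at ACT (4.72), HNT1 at TCT (3.50) and NCW1 at ACC (2.39) were the highest for the codons that remain.

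Summed over synonyms, 501 genes had 1000 or more footprints and at least 5 serine and 5 threonine codons. Serine values in them had a median of 1.02 with 5th and 95th percentiles of 0.582 and 1.76, and threonine values a median of 0.874 with 0.439 and 1.52. Across these genes the 2 values had a Spearman rho of -0.102, a description over genes of 1 library whose values share the gene mean. VMA11, a membrane subunit of the vacuolar proton pump, had the highest threonine value (3.60, with 214 footprints on 6 codons) and a serine value of 0.623. RPS11A, which has a similar B copy, had the highest serine value (3.52, with 1942 footprints on 9 codons) and a threonine value of 0.479. ERG6, a methyltransferase of ergosterol synthesis, had 2.59 and 0.822, and PAA1, a polyamine acetyltransferase, 1.73 and 0.189. CPR1 was low in both, at 0.277 and 0.495.

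**Figure D4:**
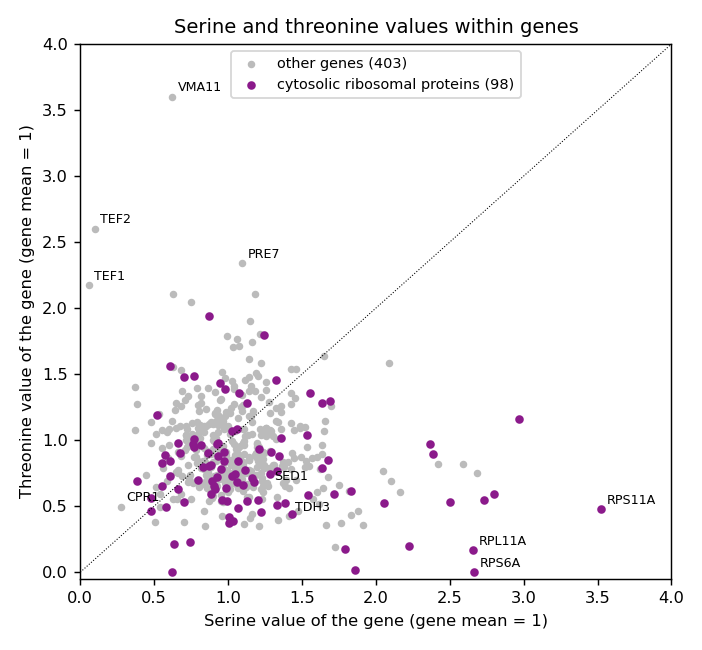
Serine value against threonine value of 501 genes with 1000 or more footprints and at least 5 codons of each amino acid, both relative to the gene mean, with the line of equality dotted. Ribosomal protein genes (purple, 98) reach the highest serine values (3.52) and the lowest threonine values (0). The near-identical genes TEF1 and TEF2 lie on the other side of the line, with low serine and high threonine values, and VMA11 has the highest threonine value (3.60).

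Ribosomal protein genes parted the amino acids most among the gene lists. Over 138 genes the serine value was 1.19 (1.17 to 1.21) and the threonine value 0.774 (0.761 to 0.791), against 0.994 and 0.946 over all genes. TCT stood at 1.29 (1.27 to 1.32), compared with 0.870 over all genes, while ACC (0.672) and ACT (0.863) were closer to their values over all genes. In sets nearer in length or depth TCT was also higher than 0.870. It was 1.09 in short genes above the median abundance and 1.02 in genes with 1000 or more footprints, ribosomal protein genes included. The median TCT pair value of the ribosomal protein genes was below the gene mean, at 0.933, against 0.749 over all genes. Of their TCT pairs 13.3% were at 2 or more, against 7.71%. The medians were nearer: the median gene had a serine value of 1.01 and a threonine value of 0.724, against 0.970 and 0.873 over all genes, and serine was above threonine in 89 of 138 genes (64.5%), against 55.6% of all genes. Most of these proteins are encoded by near-identical or similar gene copies. In the 20 genes without an A or B copy, serine was 1.09 (0.995 to 1.21), threonine 0.801 (0.748 to 0.869) and TCT 1.00, and serine was above threonine in 12 of 20. In the 118 genes with such copies TCT was 1.34 (1.32 to 1.36). The list avoids the rare codons almost wholly, with 7 genes holding TCG and 1 gene holding ACG.

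The other lists had smaller gaps between the serine and threonine values. Glycolysis and fermentation genes had serine at 1.07 (1.02 to 1.12) and threonine at 0.858 (0.815 to 0.905) over 19 genes, with serine above threonine in 14 of 19 (73.7%). Cell wall and secreted mannoproteins, in which 31.6% of the codons are serine or threonine, numbered 38 genes. They had serine at 0.978 (0.934 to 1.03) and threonine at 0.859 (0.808 to 0.919), with serine higher in 25 genes. Over all their occurrences TCA was at 0.676 (0.597 to 0.786), against 0.896 over all genes. The median TCA pair value was, however, 0.824 in the list and 0.678 over all genes. In the 20 aminoacyl-tRNA synthetase genes serine was 1.13 (1.07 to 1.18) and threonine 1.01 (0.952 to 1.06). ACG was at 2.00 (1.70 to 2.34), against 1.30 over all genes, with a median pair value of 1.81. TCG was at 1.72 (1.43 to 2.07), against 1.42 over all genes, but its median pair value was 0.944. The 13 genes of serine, glycine and threonine synthesis had 1.04 (0.971 to 1.11) and 0.977 (0.902 to 1.06), and serine was higher in 6. FG nucleoporins, whose repeats line the nuclear pore, went the other way, with serine at 0.857 (0.764 to 0.960) and threonine at 1.12 (0.992 to 1.26). Serine was higher in 3 of 11 of these genes (27.3%), and TCT was at 0.542 (0.401 to 0.723). These genes are thinly covered, with 400 footprints on 1255 serine codons, 369 on 800 threonine codons and 66 on 320 TCT codons.

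**Figure D5:**
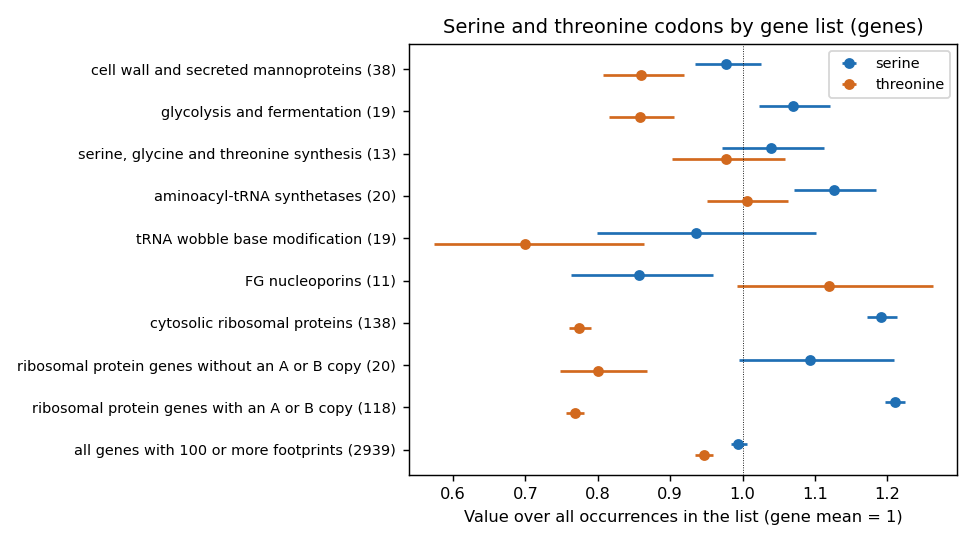
Serine (blue) and threonine (orange) values over all occurrences in each gene list, with the number of genes in brackets and 95% gamma intervals; the dotted line is the gene mean. Ribosomal protein genes show the widest gap with serine high (1.19 against 0.774), and FG nucleoporins have threonine above serine (1.12 against 0.857).

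Other sense codons resembled the families as follows. Over the 6 classes of length and abundance, the codons nearest to serine by mean absolute log2 difference were AGA of arginine (0.02), AAA of lysine (0.06) and GAC of aspartate (0.06). Those nearest to threonine were GAT of aspartate (0.08), GGT of glycine (0.10) and GAG of glutamate (0.10).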

How the data were processed

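The labels name 2 libraries, total RNA and ribosome footprints, from 1 strain. The submitters' processing notes name HTSeq, HISAT2, Bowtie2, cutadapt and, as the build, sacCer3; versions, settings, read lengths and the treatment of reads that match several genes were not given in the sources used here. The deposited footprint columns are raw counts per gene and codon, per the file headers. The columns headed "total" hold occurrences of each codon, not reads: no codon without an occurrence has footprints, and 4575 genes have 1 stop codon. The deposited abundance column is headed FPKM, but 100% of its values are whole multiples, within 0.001 reads, of 0.0459, as CPM values not divided by length would be. It names no library and was used by rank only.

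Gene means used all codons, stop codons included. Intervals are Fay-Feuer gamma intervals for weighted counts, and intervals of folds combine those of both values on the log scale. The calculation was tested on simulated counts. Genes were near-identical if their codon counts differed by up to 5% of codons from another gene's (30 listed genes). Named genes were, for each codon, the highest and lowest with 1000 or more footprints and 5 or more occurrences and the highest with 1 occurrence, then the 8 with the most serine and threonine footprints and the 5 with the largest share of such codons. Genes named for the 501-gene comparison, for counts of 0 and as lacking a near-identical copy were chosen after their values were seen. The codons, lists and tests were chosen with earlier results of these data known. Symbols and coordinates come from RefSeq R64, the assembly that UCSC calls sacCer3, which matched all but 1 gene identifier. Sequences beyond codons, RNA counts per codon and positions within genes are not analysed here. Python 3.11.15, numpy 2.4.6, pandas 2.3.3 and scipy 1.17.1 were used.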

Additional observations from a re-analysis of the deposited data

How the results depend on the processing

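No paired analysis was possible because a single library stands for either group, which also leaves no replicate to take out. Of 257 recalculated values, 119 concern the results compared below, and 85 of these stayed within the counting interval. The rest were as follows.

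With 1000 or more footprints per gene, TCG over TCT was 1.52, TCC over TCT 1.05 (1.16 in the report), AGC over AGT 1.25, ACT over ACC 1.11, TCT in the shortest over the longest genes 1.09, and 10.8% of pairs reached 2; the value of TCT itself turned from 0.870 to 1.02. The share of pairs at 0 was then 4.12% (26.9% in the report) and that at 0.5 or less 23.0% (40.9% in the report). With 30 or more, TCG over ACC was 2.07 (1.93 in the report), 15.3% of pairs reached 2, 41.4% were at 0 and 50.8% at 0.5 or less. With footprints pooled over genes against those their gene means give, TCG over ACC was 1.84, TCG over TCT 1.45, TCC over TCT 1.10, AGC over AGT 1.20, TCT by length 1.11 and serine over threonine in ribosomal proteins 1.42 (1.54 in the report); ACT over ACC turned to 0.994 and TCT to 1.00. With equal weight for every gene, TCC over TCT was 1.12, AGT by abundance 1.08 (1.23 in the report) and serine over threonine in ribosomal proteins 1.45. Capped at the 90th percentile, TCG over ACC was 1.67, TCG over TCT 1.37, TCC over TCT 1.10, ACA over ACT 1.49, TCT by length 1.13 and serine over threonine in ribosomal proteins 1.45, and AGC turned to 0.982. For medians over genes with 1000 or more footprints and 5 or more occurrences, TCG over ACC was 1.74, TCG over TCT 1.39, TCC over TCT 1.05, AGC over AGT 1.26 and serine over threonine in ribosomal proteins 1.42, and TCT by length turned to 0.894. Abundance per codon turned AGT by abundance to 0.998. Serine over threonine in ribosomal proteins was 1.41 without near-identical genes and, by choices made after the data were seen, 1.37 with a looser rule (10% of codons) and 1.37 for single-copy genes. The cause of these changes was not tested. Shares of pairs do not depend on how genes are weighted and have no value under the pooled, equal-weight and median settings.

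TCG over TCT, TCG over ACC and ACA over ACT kept their direction in all 12 alternatives run for each, with ranges of 1.37 to 1.67, 1.67 to 2.07 and 1.49 to 1.61. TCC over TCT, AGC over AGT and serine over threonine in ribosomal proteins did so too. Intervals leave out variation between cultures and any amplification.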

Other observations

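Genes that modify the wobble base of tRNAs were the list with the lowest threonine value, 0.699 (0.573 to 0.864) over 19 genes, with serine at 0.936 (0.799 to 1.10). Their ACT codons were at 0.212 (0.122 to 0.455) against 0.765 over all genes. These genes are thinly covered: their gene means give 78.4 footprints for all their ACT codons together. Of the 18 genes with ACT, 61.1% had none there, against 23.8% of ACT pairs over all genes. Among threonine pairs of all genes, 29.0% were at 0 where the gene mean gives 2 to 5 footprints, and 59.5% under 2. How much of the low ACT value goes with thin coverage was not tested.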
